A study of Mus musculus with 8 samples.

Results

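The 36 genes described here act in glucose uptake and glycolysis (23 genes), in the hypoxia-inducible factor HIF-1 pathway (3 genes) or as targets that hypoxia induces (10 genes). They were taken by symbol from a table of 54532 genes, with at least 1 count on 27185 of them, and they fill 37 lines of it because Aldoa is listed under a pair of gene identifiers. The RNA came from CD4+ T cells of the spleen of WT mice, sequenced in bulk. The dimethyl succinate group held 4 libraries of cells given the ester for 3 days, and the vehicle group held 4 libraries of cells given vehicle, which a header of the authors' table names as DMSO. Dimethyl succinate is an ester of succinate that crosses cell membranes. All 8 libraries share the genotype and the tissue. The dose, the culture conditions, any stimulation of the T cell receptor, and whether libraries came from separate mice or cultures are not given in the sources used here, so p-values measure the spread between these libraries, which may be technical.

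Glycolysis converts glucose into pyruvate in the cytosol, and lactate dehydrogenase and a lactate exporter then carry the carbon out of the cell. T cells raise this route when they are activated. HIF-1 is a transcription factor made of an oxygen-regulated subunit (HIF-1alpha, from Hif1a) and a constant partner (ARNT), and it binds short ACGTG or GCGTG letters near many genes of glycolysis. Prolyl hydroxylases mark HIF-1alpha for VHL, the subunit of a ubiquitin ligase, and they release succinate as a product, which at high levels inhibits them. That control acts on the protein, which transcript counts do not measure.

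The libraries held 13407295 to 16688854 counts each. The labelled cell type was checked against its markers: Cd4 stood at 116 ± 3.72 FPKM (fragments per kilobase of gene, scaled by library depth) in dimethyl succinate libraries and 102 ± 15.9 FPKM in vehicle libraries (SD, n = 4 each). Cd8a, which marks cytotoxic T cells, stood at 0.296 ± 0.0586 FPKM under dimethyl succinate and 0.237 ± 0.0440 FPKM under vehicle. Cd8b1, the partner chain of Cd8a, stood at 3.799 ± 0.555 FPKM under dimethyl succinate and 3.29 ± 0.0845 FPKM under vehicle. Summed FPKM of 7 T cell genes (Cd4, and Cd3d, Cd3e, Cd3g, Trac, Cd5 and Lat, which CD8 T cells also express) ran from 1056 to 1142 in dimethyl succinate libraries and from 914 to 1067 in vehicle libraries. The summed markers of CD8 T, B, myeloid, NK, erythroid and stromal cells, taken list by list, stayed between 1.34 and 7.35 FPKM under dimethyl succinate and between 0.864 and 6.28 FPKM under vehicle, with none of these genes at 0 in every library. Vehicle replicate 4 stood apart from the other 7 libraries, with a mean log2 correlation of 0.981 to them, where theirs lay from 0.989 to 0.991. Mitochondrial genes took 0.252% of its counts and 1.16% to 1.48% elsewhere. It is kept in every value unless a value is given without it. In bulk RNA, fewer cells that express a gene and less RNA per cell cannot be told apart.

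The 3 promoters printed here belong to members picked by their values in the comparison, which called none of them. Slc16a3, which encodes the lactate exporter MCT4, had the smallest p of the 36. The dimethyl succinate libraries of Pfkfb3 all lay above the vehicle libraries, as in 2.31% of all genes tested. Those of Ankrd37 all lay below, as in 2.47% of all genes tested. Each promoter runs from 250 bases before to 50 bases after the start of transcription in RefSeq (GRCm38.p6), at chr11:120948817-120949116 on the plus strand for Slc16a3, chr2:11553880-11554179 on the minus strand for Pfkfb3 and chr8:45999801-46000100 on the minus strand for Ankrd37. Capitals mark ACGTG or GCGTG read on either strand, the core letters that HIF-1 binds, and a palindrome counts on both strands. These starts lie 587 bases (Slc16a3), 148 bases (Pfkfb3) and 5857 bases (Ankrd37) inside the gene start listed by the authors.
Slc16a3: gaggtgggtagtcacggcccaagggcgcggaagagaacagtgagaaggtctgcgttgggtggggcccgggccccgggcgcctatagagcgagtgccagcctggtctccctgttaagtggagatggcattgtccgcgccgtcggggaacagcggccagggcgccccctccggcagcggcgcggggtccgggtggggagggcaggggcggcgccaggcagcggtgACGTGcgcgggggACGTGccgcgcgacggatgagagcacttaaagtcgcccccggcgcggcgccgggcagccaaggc
Pfkfb3: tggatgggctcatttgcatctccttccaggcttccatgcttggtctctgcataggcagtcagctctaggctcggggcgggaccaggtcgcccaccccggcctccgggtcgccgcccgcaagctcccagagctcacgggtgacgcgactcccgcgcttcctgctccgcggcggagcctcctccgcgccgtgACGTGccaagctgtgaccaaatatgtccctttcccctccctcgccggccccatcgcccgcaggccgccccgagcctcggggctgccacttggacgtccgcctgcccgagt
Ankrd37: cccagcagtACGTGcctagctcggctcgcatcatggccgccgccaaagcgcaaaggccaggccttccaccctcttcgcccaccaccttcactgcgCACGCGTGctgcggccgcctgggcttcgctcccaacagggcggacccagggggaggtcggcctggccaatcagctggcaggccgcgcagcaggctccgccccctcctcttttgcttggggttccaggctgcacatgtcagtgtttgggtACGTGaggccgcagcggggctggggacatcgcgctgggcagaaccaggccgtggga
Slc16a3 held 2 such matches, Pfkfb3 held 1 and Ankrd37 held 4, with 1 pair of the last overlapping. A RefSeq promoter was matched for 32 of the 36 genes. Of these, 23 (71.9%) held ACGTG or GCGTG, against 43.8% of all 32851 promoters in the set and 63.9% of the 9730 promoters of genes that passed the count filter. The stricter letters ACGTG alone were in 15 of the 32 (46.9%), against 19.6% of all promoters and 26.3% of those of filtered genes. By group, ACGTG or GCGTG was in 16 of 22 glycolysis promoters, 2 of 3 of the HIF-1 pathway and 5 of 7 hypoxia targets. A match describes letters in this window and is not evidence of binding.

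Transcripts of the 36 genes differed little between dimethyl succinate and vehicle cells. All 36 passed the filter on low counts, and edgeR's quasi-likelihood test, with Benjamini-Hochberg adjustment over 13981 genes at 0.05, called 0 of them. The smallest adjusted p among them was 0.802. Fold changes are given as log2 of dimethyl succinate over vehicle. Across all genes 0 were called as well (0.0%), with a smallest adjusted p of 0.646, and DESeq2 called 4 genes, none of them a member. At an unadjusted p below 0.05, 1 member was higher, Slc16a3, and 0 were lower, where 2.93% of all genes were higher and 2.83% lower, 805 genes or 5.76% in all. The 4 dimethyl succinate libraries all lay above the 4 vehicle libraries in 1 member, Pfkfb3 (2.31% of all genes), and all lay below them in 1, Ankrd37 (2.47% of all genes). The median log2 fold change was -0.018 over the members and -0.0011 over all genes, with 14 members above 0 and 22 below, where 49.6% of all genes lay above 0. For 35 of the 36 the 95% interval of the fold change lay within 1.5-fold in either direction, as it did for 71.7% of all genes tested, and Gapdh was the exception.

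**Figure D1:**
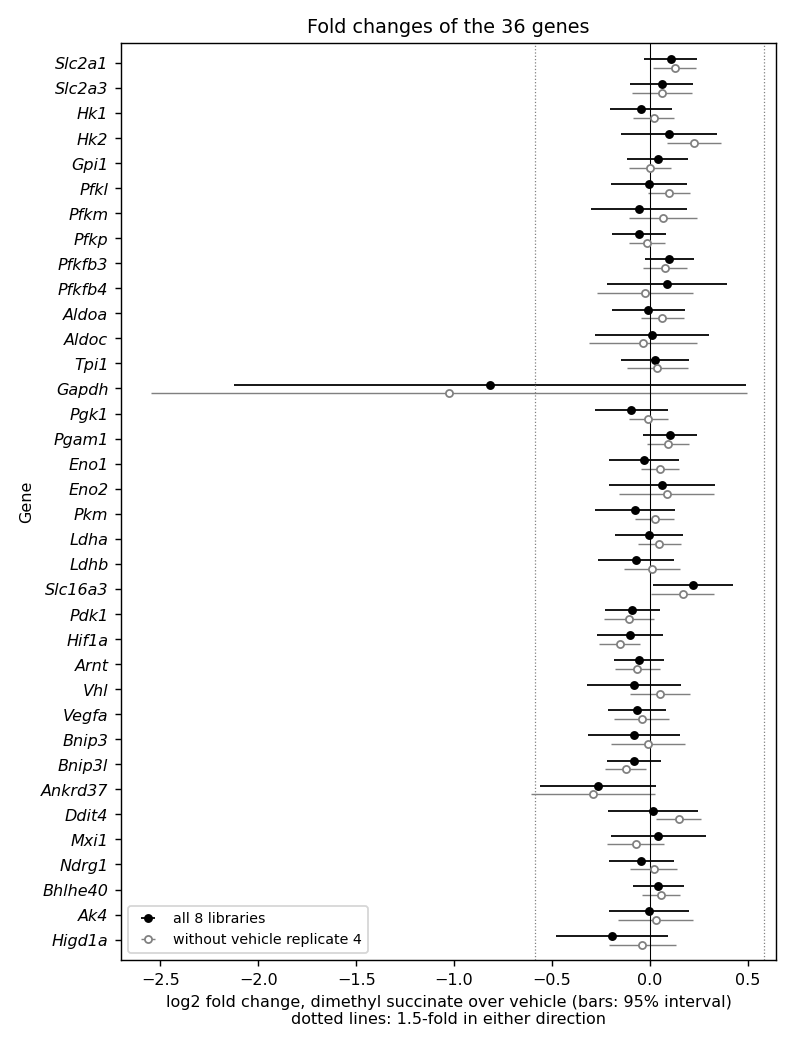
Log2 fold change of each of the 36 genes, dimethyl succinate over vehicle, from edgeR with all 8 libraries (filled) and without vehicle replicate 4 (open), with 95% intervals as bars and dotted lines at 1.5-fold. Points other than those of Gapdh lie between -0.29 and 0.23, and the interval of Gapdh runs from -2.13 to 0.50 with all libraries.

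Leaving out vehicle replicate 4 changed the fold changes of single members in both directions. Those of Ddit4, Vhl and Higd1a were 0.15, 0.053 and -0.038 without it, and 0.017, -0.081 and -0.19 with all libraries, while that of Mxi1 was -0.072 without it and 0.045 with all. The median log2 fold change of the 23 glycolysis genes was -0.0014 with all libraries and 0.049 without it, with 11 and then 17 genes above 0. The medians of the HIF-1 genes were -0.081 and -0.062, and those of the 10 hypoxia targets -0.053 and -0.023. Without that library 0 members passed the adjusted threshold among 14232 genes, with a smallest adjusted p of 0.227, where 28 genes in all were called (0.197%). At an unadjusted p below 0.05, 4 members were then higher, Slc2a1, Hk2, Slc16a3 and Ddit4 (4.43% of all genes were), and 2 were lower, Hif1a and Bnip3l (4.12% of all genes were, 8.54% in both directions). Dimethyl succinate libraries lay above the 3 remaining vehicle libraries in Hk2 and Pfkfb3 (4.74% of all genes) and below them in Hif1a, Bnip3l and Ankrd37 (4.9% of all genes).

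Glucose enters through facilitated transporters, and the transcript of Slc2a1, which encodes GLUT1, was more abundant than that of Slc2a3. Slc2a1 stood at 48.1, 43.1, 41.4 and 43.5 FPKM in the 4 dimethyl succinate libraries and at 40.6, 41.5, 39.1 and 42.8 FPKM in the 4 vehicle libraries. Dimethyl succinate replicate 1 was the highest of the 8 and vehicle replicate 3 the lowest, and the groups overlapped. Its log2 fold change was 0.11 ± 0.0626 (SE), and 0.13 with an unadjusted p of 0.0254 and an adjusted p of 0.496 in edgeR without vehicle replicate 4. Slc2a3, which encodes the high-affinity transporter GLUT3, ranged from 4.87 to 5.65 FPKM under dimethyl succinate and from 4.96 to 5.07 FPKM under vehicle, a log2 fold change of 0.062 ± 0.0743. Per length, Slc2a1 was 7.98 to 8.94 times as abundant as Slc2a3 in dimethyl succinate libraries and 7.87 to 8.44 times in vehicle libraries.

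Hexokinases trap glucose in the cell as its phosphate, and Hk1 and Hk2 were at near equal levels. Hk2, the inducible form, stood at 36.03, 32.2, 31.7 and 40.0 FPKM under dimethyl succinate and 29.3, 30.6, 29.95 and 41.5 FPKM under vehicle. Vehicle replicate 4 was the highest of all 8 libraries, while the other 3 vehicle libraries lay below all those of dimethyl succinate. Its log2 fold change was 0.10 ± 0.112 (SE) with all libraries and 0.23 ± 0.0654 without vehicle replicate 4, where the unadjusted p was 0.00244 and the adjusted p 0.227 (edgeR). The gene lies at chr6:82725025-82774454 on the minus strand (GRCm38). Hk1, the form bound to mitochondria in most tissues, stood at 34.7, 30.7, 31.1 and 31.9 FPKM under dimethyl succinate and 32.4, 32.4, 30.3 and 37.7 FPKM under vehicle, with the groups overlapping. The Hk2 to Hk1 ratio per length was 1.04, 1.05, 1.02 and 1.26 in dimethyl succinate libraries and 0.906, 0.945, 0.988 and 1.10 in vehicle libraries. Vehicle replicate 4 was thus the only vehicle library above 1, and the mean log2 ratio was 0.15 higher under dimethyl succinate than under vehicle, with an exact two-sided permutation p of 0.171 and an adjusted p of 0.943 over 9 ratios. Gpi1, which turns glucose phosphate into fructose phosphate, ranged from 77.0 to 90.9 FPKM under dimethyl succinate and from 74.1 to 85.6 FPKM under vehicle.

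Phosphofructokinase commits sugar to glycolysis, and its 3 subunit genes were all present. Pfkp, the platelet type, averaged 35.5 ± 0.301 FPKM under dimethyl succinate and 37.0 ± 2.53 FPKM under vehicle (SD, n = 4 each). Pfkl, the liver type, averaged 31.9 ± 1.81 FPKM under dimethyl succinate and 32.1 ± 4.58 FPKM under vehicle, and Pfkm, the muscle type, 7.35 ± 0.364 FPKM under dimethyl succinate and 7.67 ± 1.36 FPKM under vehicle. In each of the 3 genes vehicle replicate 4 was the highest library, at 40.5 FPKM for Pfkp, 38.7 FPKM for Pfkl and 9.60 FPKM for Pfkm, and the log2 fold changes were -0.055, -0.0033 and -0.056. Without it they were -0.012, 0.10 and 0.068, so the sign of the Pfkl and Pfkm values turned. Some exon bases of Pfkp (5.58%) overlap Pitrm1 on the opposite strand, and strand use in counting is not given in the sources used here.

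Pfkfb3 and Pfkfb4 encode bifunctional enzymes that make and break down the bisphosphate activator of phosphofructokinase. Pfkfb3 stood at 10.8, 11.2, 11.1 and 10.8 FPKM in dimethyl succinate libraries and 10.4, 10.7, 10.2 and 9.87 FPKM in vehicle libraries. Every dimethyl succinate library was above every vehicle library, by a small margin: the lowest dimethyl succinate library was at 10.8 FPKM and the highest vehicle library at 10.7 FPKM. In edgeR there was a log2 fold change of 0.10 ± 0.0584 (SE), with an unadjusted p of 0.109 that was 0.802 as an adjusted p, and the fold change was 0.079 without vehicle replicate 4. The gene (ENSMUSG00000026773) lies at chr2:11471433-11554077 on the minus strand. Pfkfb4 was the least abundant of the 36 per length, at 2.11, 2.12, 2.59 and 2.01 FPKM under dimethyl succinate and 2.23, 2.21, 2.32 and 1.57 FPKM under vehicle. The lowest library was vehicle replicate 4 and the highest dimethyl succinate replicate 3, and a log2 fold change of 0.091 with all libraries became -0.023 without vehicle replicate 4.

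Genes of the later steps of glycolysis were among the most abundant transcripts of these cells. Pkm, which encodes pyruvate kinase, ranked 73 of the 13981 tested genes by mean FPKM, Ldha, the muscle subunit of lactate dehydrogenase, ranked 76, Pgk1, phosphoglycerate kinase, ranked 90, Aldoa, the main aldolase, ranked 110 and Eno1, the main enolase, ranked 152. Pkm stood at 456, 411, 405 and 441 FPKM under dimethyl succinate and 416, 436, 414 and 548 FPKM under vehicle. The highest of the 8 was vehicle replicate 4, and the other 7 libraries lay between 405 and 456 FPKM. Its log2 fold change was -0.076 ± 0.0943 (SE), or 0.026 without vehicle replicate 4. Ldha stood at 482, 417, 401 and 448 FPKM under dimethyl succinate and 421, 438, 412 and 486 FPKM under vehicle, with overlapping groups and a log2 fold change of -0.0014 ± 0.0805. Pgk1 ranged from 347 to 379 FPKM under dimethyl succinate and from 341 to 456 FPKM under vehicle, with a log2 fold change of -0.093, or -0.0075 without vehicle replicate 4. Some reads of these genes may be shared, since 100% of the 50-base coding windows of Pgk1, 75.1% of those of Eno1 and 53.6% of those of Pkm occur in another annotated gene. The copies that share at least 100 windows had far fewer counts (633 against 102138 for Pgk1). How reads that match several genes were counted is not given, so these counts cannot show how many shared reads went uncounted. Gm49759 covers 15.3% of the exon bases of Pkm on the same strand and had 9350 counts against 267846 for Pkm.

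Aldoa ranged from 307 to 368 FPKM under dimethyl succinate and from 304 to 379 FPKM under vehicle, and its second listed identifier had at most 9 counts in any library and was not tested. Tpi1, which interconverts the triose phosphates, ranged from 147 to 180.2 FPKM under dimethyl succinate and from 145 to 178 FPKM under vehicle. Pgam1, phosphoglycerate mutase, stood at 161, 146, 141 and 142 FPKM under dimethyl succinate and 132, 139, 145 and 134 FPKM under vehicle, and its log2 fold change of 0.10 ± 0.0630 (SE) was positive with each library left out in turn, from 0.062 to 0.13. All its coding windows also occur in another annotated gene. Eno1 averaged 251 ± 12.1 FPKM under dimethyl succinate and 257 ± 29.3 FPKM under vehicle (SD, n = 4 each). The minor forms Aldoc, the brain aldolase, and Eno2, the neuronal enolase, averaged 2.88 ± 0.120 and 3.89 ± 0.738 FPKM under dimethyl succinate and 2.86 ± 0.505 and 3.74 ± 0.256 FPKM under vehicle. For Eno2 the highest library was dimethyl succinate replicate 3 at 4.96 FPKM, and without it the log2 fold change was -0.074 in place of 0.063.

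**Figure D2:**
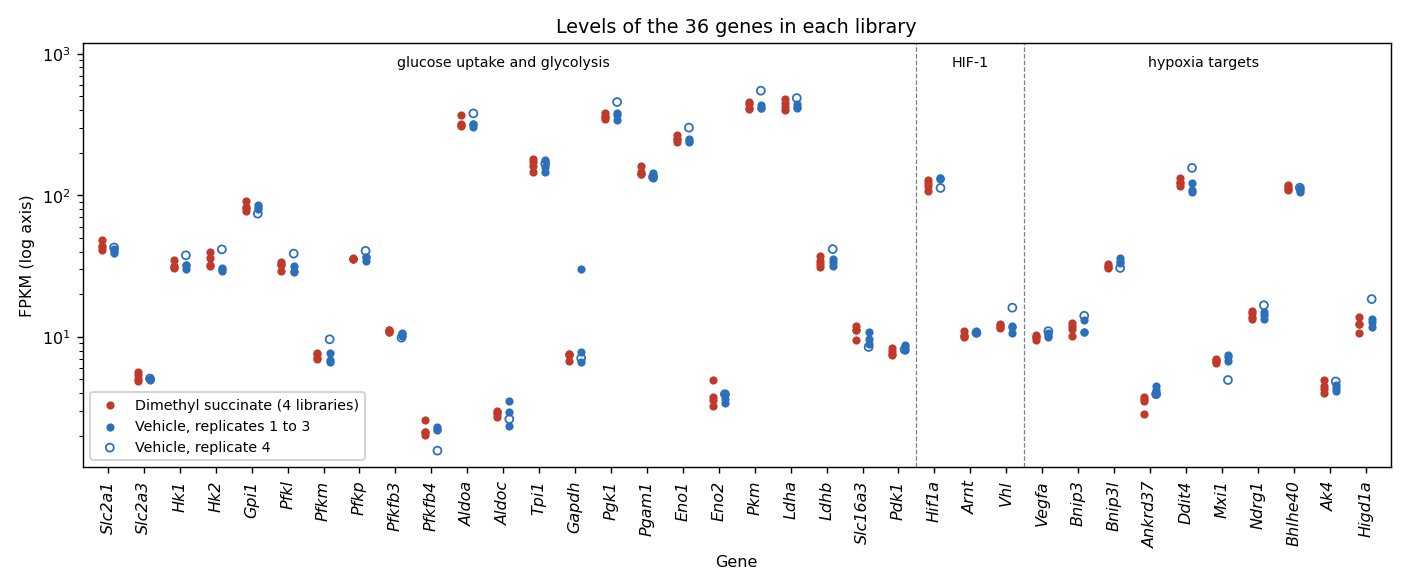
FPKM on a log axis of each of the 36 genes in the 4 dimethyl succinate libraries (left of each pair) and the 4 vehicle libraries (right), with vehicle replicate 4 as an open circle. Mean levels run from 2.15 FPKM for Pfkfb4 to 441 FPKM for Pkm, and the open circle is the top vehicle point in Pkm, Pgk1, Hk2, Vhl and Higd1a.

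Gapdh, the glyceraldehyde phosphate dehydrogenase often used as a stable control, was the member with the largest spread. It stood at 7.47, 7.57, 6.70 and 7.62 FPKM in dimethyl succinate libraries and 7.82, 30.1, 6.61 and 7.07 FPKM in vehicle libraries. Vehicle replicate 2 alone was high, and the other 7 libraries lay between 6.61 and 7.82 FPKM. Its log2 fold change was -0.82 ± 0.549 (SE), the 95% interval ran from -2.13 to 0.50 and the adjusted p was 0.805 in edgeR. The fold change was 0.039 without vehicle replicate 2. The counts behind these values were 456, 527, 456 and 497 under dimethyl succinate and 461, 1966, 367 and 420 under vehicle. By mean FPKM over all 8 libraries, which vehicle replicate 2 raised to 10.1 FPKM, Gapdh ranked 5260 of the tested genes. Among the 36 genes it was below every other enzyme between Tpi1 and Pkm except Eno2.

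The Gapdh counts are uncertain, since near-identical copies of its coding sequence lie across the genome. Of its 1035 coding windows of 50 bases, 93.5% occur in another annotated gene, and 89 genes share at least 100 of them. These 89 genes held 11771 counts over the 8 libraries, against 5150 on Gapdh. The 120 bases printed here show this for Gapdh (chr6:125161715-125166467, minus strand) and the pair of copies with the most counts, Gm7336 on chromosome 7 and Gm5559 on chromosome 5, from GENCODE M21 transcripts (GRCm38), read along the transcript from coding base 403 of Gapdh to coding base 522. The capital marks the 1 base that differs between Gapdh and Gm5559.
Gapdh: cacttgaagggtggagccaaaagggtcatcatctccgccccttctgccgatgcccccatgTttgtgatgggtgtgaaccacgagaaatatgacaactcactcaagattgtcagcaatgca
Gm7336: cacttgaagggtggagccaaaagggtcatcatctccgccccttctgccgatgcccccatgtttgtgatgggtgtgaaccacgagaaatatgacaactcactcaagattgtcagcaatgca
Gm5559: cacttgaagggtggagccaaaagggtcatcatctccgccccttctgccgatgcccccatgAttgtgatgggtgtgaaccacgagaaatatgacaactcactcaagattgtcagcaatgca
Gm7336 was identical to Gapdh over all 1017 aligned bases and Gm5559 over 998 of 999. Summed over the 89 genes, CPM (counts scaled by library total) was 126, 98.4, 99.3 and 74.6 in dimethyl succinate libraries and 109.9, 101, 105 and 65.8 in vehicle libraries. Vehicle replicate 2, with its high Gapdh, had a copy sum inside the range of the others. How the authors' counting placed reads that match several genes, and the read length, are not given in the sources used here.

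**Figure D3:**
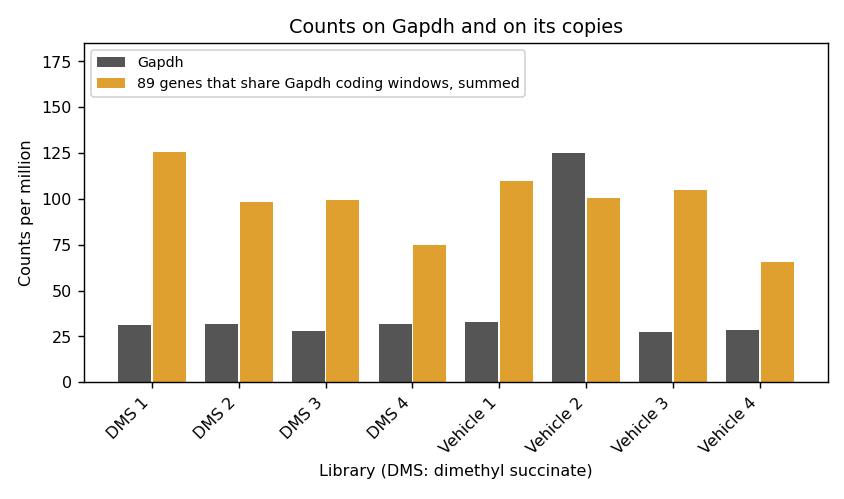
CPM on Gapdh (grey) and summed over the 89 genes that share at least 100 of its 50-base coding windows (orange), in each of the 4 dimethyl succinate (DMS) and 4 vehicle libraries. Gapdh is highest in vehicle replicate 2, at 125 CPM, while the summed copies exceed Gapdh in the other 7.

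Pyruvate is turned into lactate by lactate dehydrogenase and leaves the cell through monocarboxylate transporters. Slc16a3, which encodes the exporter MCT4 (ENSMUSG00000025161, chr11:120948480-120960868, plus strand), stood at 12.0, 11.2, 9.55 and 11.2 FPKM in dimethyl succinate libraries and 8.85, 10.9, 9.61 and 8.48 FPKM in vehicle libraries. Of the 4 dimethyl succinate libraries 3 were above all vehicle libraries, and replicate 3 lay within the vehicle range. In edgeR there was a log2 fold change of 0.22 ± 0.0943 (SE), a 95% interval from 0.017 to 0.43, and an unadjusted p of 0.0359 that was 0.802 as an adjusted p. The fold change was positive with each library left out in turn, from 0.17 without vehicle replicate 4 to 0.30 without vehicle replicate 2, and the unadjusted p ran from 0.00835 to 0.104. That p was above 0.05 without any 1 of dimethyl succinate replicates 1, 2 or 4 or vehicle replicates 1 or 3. The authors' deposited table gives it a log2 fold change of 0.22 and a p of 0.0405 with an adjusted p of 0.823. Ldhb, the heart subunit of lactate dehydrogenase, ranged from 31.2 to 37.1 FPKM under dimethyl succinate and from 31.7 to 41.7 FPKM under vehicle, with a log2 fold change of -0.069 ± 0.0903. The Ldhb to Ldha ratio ran from 0.0732 to 0.0816 under dimethyl succinate and from 0.0753 to 0.0857 under vehicle, with an exact two-sided permutation p of 0.286 and an adjusted p of 0.943. Pdk1 encodes a kinase that shuts pyruvate dehydrogenase. It stood at 7.49, 8.32, 7.62 and 7.90 FPKM under dimethyl succinate and 8.58, 8.72, 8.04 and 8.12 FPKM under vehicle. Its log2 fold change of -0.090 ± 0.0651 was below 0 with each library left out.

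Over the 9 pairs of related genes compared within libraries, the balance of forms was not shown to differ: adjusted p ran from 0.943 to 1 by exact two-sided permutation over 70 splits, which cannot give a p below 0.0286. After adjustment over the 9 pairs, no pair could pass 0.05 on its own. The test therefore could not show a change limited to a single pair. The Pfkp to Pfkl ratio ran from 1.07 to 1.22 in dimethyl succinate libraries and from 1.05 to 1.24 in vehicle libraries, and the Bnip3l to Bnip3 ratio ran from 2.60 to 3.06 under dimethyl succinate and from 2.18 to 3.16 under vehicle. Together the 23 glycolysis genes took 0.864%, 0.803%, 0.784% and 0.804% of summed FPKM in dimethyl succinate libraries and 0.794%, 0.813%, 0.767% and 0.894% in vehicle libraries. Vehicle replicate 4 held the largest share and dimethyl succinate replicate 1 the next. The means were 0.814% ± 0.0351 under dimethyl succinate and 0.817% ± 0.0546 under vehicle (SD, n = 4 each), or 0.791% ± 0.0226 over the 3 other vehicle libraries. Without Gapdh, whose counts are uncertain, the means were 0.811% ± 0.0351 under dimethyl succinate and 0.813% ± 0.0550 under vehicle.

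**Figure D4:**
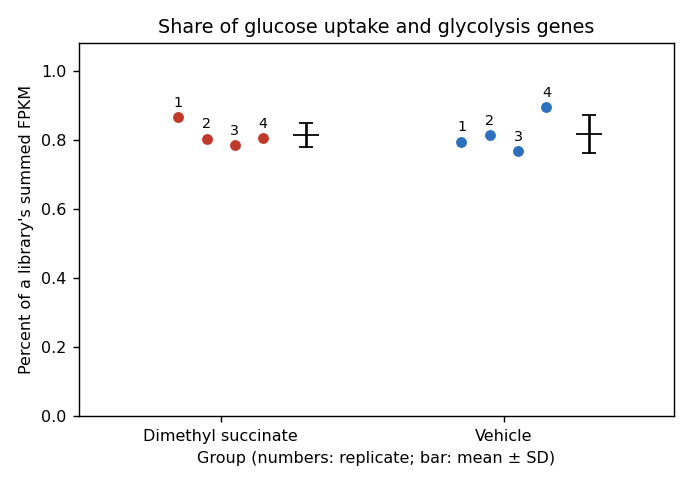
Percent of each library's summed FPKM on the 23 glycolysis genes, by group, with replicate numbers over the points and the mean ± SD beside them. The dimethyl succinate libraries lie from 0.784% to 0.864%, inside the vehicle range of 0.767% to 0.894% that vehicle replicate 4 tops.

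The 3 genes of the HIF-1 pathway lay slightly below 0 with all libraries. Hif1a (ENSMUSG00000021109, chr12:73901375-73947530, plus strand) stood at 107, 127, 122 and 117 FPKM in dimethyl succinate libraries and 133, 130.0, 133 and 113 FPKM in vehicle libraries. Vehicle replicates 1 to 3 were above every dimethyl succinate library, and vehicle replicate 4 lay among the dimethyl succinate values. Its log2 fold change was -0.10 ± 0.0784 (SE) with all libraries and -0.15 ± 0.0513 without vehicle replicate 4, where the unadjusted p was 0.00586 and the adjusted p 0.317 in edgeR. Arnt, its partner subunit, averaged 10.4 ± 0.453 FPKM under dimethyl succinate and 10.8 ± 0.188 FPKM under vehicle (SD, n = 4 each). Vhl, whose product removes HIF-1alpha, stood at 12.0, 11.8, 11.5 and 12.3 FPKM under dimethyl succinate and 10.7, 11.8, 12.0 and 16.1 FPKM under vehicle. Only vehicle replicate 4 was above 12.3 FPKM. The log2 fold change of -0.081 turned to 0.053 without it. The antisense gene Gm15283 overlaps 5.60% of the exon bases of Hif1a and had 1039 counts against 88013.

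Of the 10 hypoxia targets, 7 had a log2 fold change below 0 and Ankrd37 the lowest. Ankrd37, an ankyrin repeat protein gene induced by HIF-1 (ENSMUSG00000050914, chr8:45996902-46005707, minus strand), stood at 2.86, 3.63, 3.51 and 3.79 FPKM in dimethyl succinate libraries and 3.97, 4.23, 4.50 and 3.93 FPKM in vehicle libraries. All dimethyl succinate libraries were below all vehicle libraries, with a gap between 3.79 FPKM under dimethyl succinate and 3.93 FPKM under vehicle. These values rest on 65 to 103 counts per library. In edgeR there was a log2 fold change of -0.26 ± 0.138 (SE), with an unadjusted p of 0.0784 that was 0.802 as an adjusted p, and the fold change ran from -0.31 to -0.18 with each library left out. Lrp2bp on the opposite strand overlaps 22.7% of its exon bases and had 134 counts against 710 for Ankrd37. Ufsp2, also on the opposite strand, overlaps 3.70% of the Ankrd37 exon bases and had 2559 counts. Strand use in counting is not given in the sources used here.

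Bnip3 and Bnip3l encode receptors that direct mitochondria to autophagy. Bnip3l stood at 30.8, 32.8, 31.1 and 31.5 FPKM under dimethyl succinate and 34.1, 35.98, 33.2 and 30.7 FPKM under vehicle. The lowest of the 8 libraries was vehicle replicate 4, and the other 3 vehicle libraries lay above every dimethyl succinate library. Its log2 fold change was -0.081 ± 0.0630 (SE), or -0.12 with an unadjusted p of 0.0227 and an adjusted p of 0.489 in edgeR without that library. Bnip3 ranged from 10.1 to 12.6 FPKM under dimethyl succinate and from 10.8 to 14.1 FPKM under vehicle, with a log2 fold change of -0.081 ± 0.108. Ddit4, a stress-induced inhibitor of mTORC1, stood at 123, 124, 116 and 133 FPKM under dimethyl succinate and 106, 122, 109 and 156 FPKM under vehicle. The highest of the 8 was again vehicle replicate 4, and the log2 fold change of 0.017 ± 0.106 was 0.15 ± 0.0553 without it, with an unadjusted p of 0.0125 and an adjusted p of 0.405 in edgeR.

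Higd1a, a small protein of the inner mitochondrial membrane, stood at 12.3, 12.3, 10.7 and 13.9 FPKM under dimethyl succinate and 12.8, 13.4, 11.7 and 18.5 FPKM under vehicle. Its highest library was vehicle replicate 4, and the log2 fold change of -0.19 ± 0.131 (SE) was -0.038 without it. Mxi1, an antagonist of MYC, ranged from 6.55 to 6.96 FPKM under dimethyl succinate and from 4.95 to 7.42 FPKM under vehicle, with vehicle replicate 4 the lowest. Vegfa, the vascular growth factor, averaged 9.94 ± 0.301 FPKM under dimethyl succinate and 10.4 ± 0.446 FPKM under vehicle (SD, n = 4 each). Ndrg1, a stress-responsive gene, averaged 14.3 ± 0.799 FPKM under dimethyl succinate and 14.8 ± 1.45 FPKM under vehicle. Bhlhe40, a transcription factor that also shapes T cell cytokine output, averaged 113 ± 4.44 FPKM under dimethyl succinate and 110.1 ± 3.55 FPKM under vehicle. Ak4, a mitochondrial adenylate kinase, averaged 4.45 ± 0.399 FPKM under dimethyl succinate and 4.48 ± 0.305 FPKM under vehicle. For Mxi1, Vegfa, Ndrg1, Bhlhe40 and Ak4 the groups overlapped and the log2 fold changes ran from -0.064 to 0.045. Of the 50-base coding windows, shares of Bnip3 (76.8%), Bnip3l (72.9%), Ak4 (67.9%) and Higd1a (54.0%) also occur in other annotated genes. Among copies sharing at least 100 windows with these 4 genes, the one of Bnip3l held the most counts, 1065 over the 8 libraries with 15277 on Bnip3l itself.

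The deviation of each gene's log2 CPM from its mean over the 8 libraries was summarised by group. In dimethyl succinate replicate 3 the median deviation was -0.082 over the 23 glycolysis genes, -0.050 over the 3 HIF-1 genes and -0.061 over the 10 hypoxia targets. In vehicle replicate 4 it was 0.045 over the 23 glycolysis genes, 0.0055 over the HIF-1 genes and 0.10 over the hypoxia targets. Over the 23 glycolysis genes the highest median was 0.083, in dimethyl succinate replicate 1, and the lowest -0.088, in vehicle replicate 3. Vehicle replicate 3 was also the lowest over the hypoxia targets, at -0.073, where vehicle replicate 4 was the highest. Over the HIF-1 genes vehicle replicate 3 was the highest, at 0.064, and dimethyl succinate replicate 4 the lowest, at -0.064. Within the glycolysis genes of vehicle replicate 4, the 17 enzymes from hexokinase to lactate dehydrogenase, without transporters and regulatory enzymes, had a median of 0.20. That library was the highest of the 8 for 11 of the 17 enzymes (64.7%) and for 17 of the 36 members (47.2%), and it was the highest for 29.9% of all genes tested. It was the lowest for 6 of the 36 members, Gpi1, Pfkfb3, Pfkfb4, Slc16a3, Bnip3l and Mxi1, and for 28.4% of all genes. Dimethyl succinate replicate 1 had the next highest enzyme median, 0.083, and vehicle replicate 3 the lowest, -0.10. The low mitochondrial share of vehicle replicate 4 goes with these deviations, and its part in them was not tested.

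**Figure D5:**
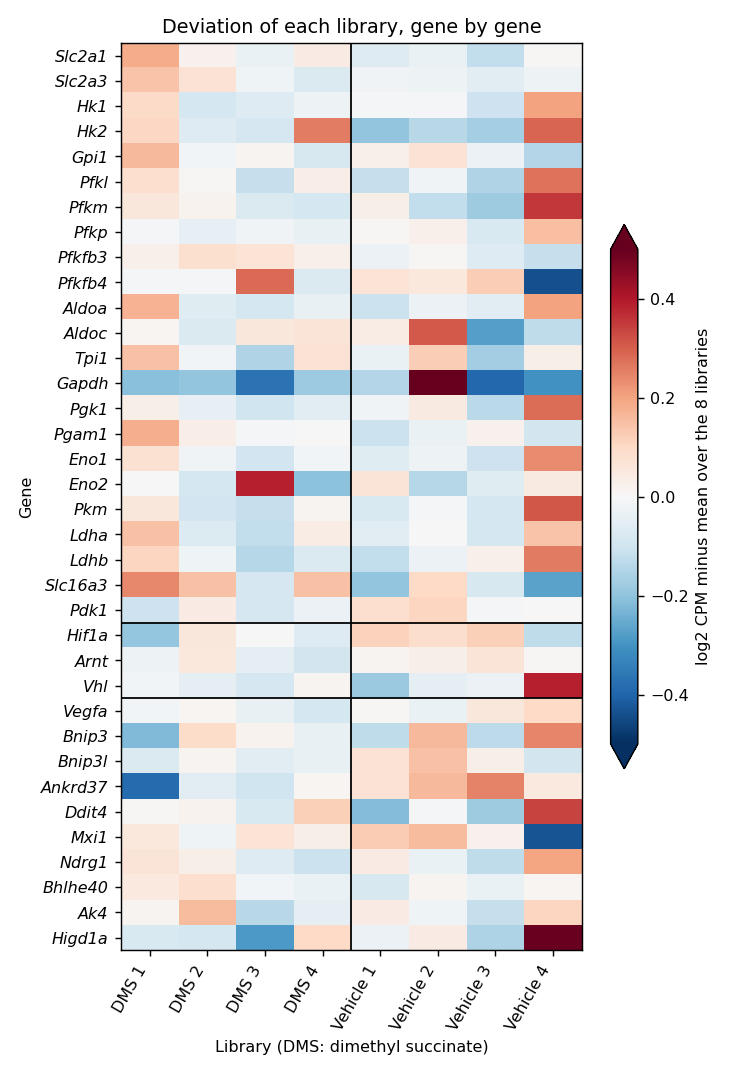
Log2 CPM of each gene in each library minus its mean over the 8 libraries, with red above and blue below the mean and genes in the order glycolysis, HIF-1 and hypoxia targets. Vehicle replicate 4 has a median of 0.045 over the 23 glycolysis genes and 0.20 over the 17 enzymes from hexokinase to lactate dehydrogenase among them, and Gapdh is dark red in vehicle replicate 2 alone.

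Other genes of the same pathways, taken from a list of 76 symbols, were tested in the same fit. Of these, 60 passed the filter on low counts, and 0 of the 60 passed the adjusted threshold in edgeR, with a median log2 fold change of -0.012. At an unadjusted p below 0.05, 0 were higher (2.93% of all genes were) and 2 were lower, Wsb1 and Nampt (2.83% of all genes were). Wsb1, a substrate adaptor of a ubiquitin ligase, stood at 32.2, 34.1, 35.4 and 35.9 FPKM under dimethyl succinate and 37.2, 38.2, 37.2 and 41.4 FPKM under vehicle. All dimethyl succinate libraries were below all vehicle libraries, and the log2 fold change was -0.16 ± 0.0608 (SE), with an unadjusted p of 0.0228 and an adjusted p of 0.802 in edgeR. Nampt, the rate-limiting enzyme of NAD salvage, stood at 25.6, 26.6, 26.9 and 29.0 FPKM under dimethyl succinate and 28.8, 30.7, 31.3 and 28.8 FPKM under vehicle, with overlapping groups and a log2 fold change of -0.14 ± 0.0609. Cited2, whose product competes with HIF-1alpha for its coactivator, had the next smallest p, with 18.3, 17.0, 16.4 and 15.4 FPKM under dimethyl succinate and 14.0, 16.5, 15.3 and 12.5 FPKM under vehicle, a log2 fold change of 0.21 ± 0.0961. Dimethyl succinate libraries lay above vehicle libraries in 0 of the 60 genes (2.31% of all genes) and below them in 3 (2.47% of all genes), Wsb1, Slc16a1 and Gbe1, of which Slc16a1 and Gbe1 were picked after their values were seen. Slc16a1, the monocarboxylate transporter MCT1, stood at 27.3, 27.5, 25.9 and 25.4 FPKM under dimethyl succinate and 28.2, 27.5, 28.6 and 33.8 FPKM under vehicle. The groups nearly touched, and the log2 fold change of -0.15 ± 0.0710 was -0.079 without vehicle replicate 4. Gbe1, the glycogen branching enzyme, had a log2 fold change of -0.17 ± 0.0877.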

How the data were processed

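Total counts per gene and library were deposited by the authors as raw counts, per the file headers, beside FPKM values, a log2 fold change, a p-value with its adjusted value, and group means, read here as a normalised signal because the file headers give no unit. FPKM values were made by the authors. The file headers list a gene length beside them and do not say how they were computed. The submitters' processing notes name HISAT2 2.0.5. The counting tool, genome build, strand use and read length are not given in the sources used here. Coordinates are read as GRCm38, since 99.2% of 54409 matched genes shared a start or end with GENCODE M21.

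From the counts, edgeR 4.0.16 in R 4.3.3 (filterByExpr, TMM, robust quasi-likelihood F test, two-sided) was fitted to all 8 libraries, 4 against 4 with no covariate, over 13981 genes, with Benjamini-Hochberg adjustment at 0.05. Standard errors come from the F statistic and intervals cover 95%. The test was tried on simulated counts. DESeq2 1.42.0, limma 3.58.1 (log2(FPKM + 1) and log2(FPKM + 0.1)), RLE scaling, other filters, a block on replicate number and each library left out were alternatives. Ratios of related genes were compared by exact permutation. Log2 CPM used a prior count of 2. Depth was 13407295 to 16688854 counts. Every replicate pair was further apart than counting noise allows (chi-square per gene 2.11 or more). The value was 35.1 to 39.9 for pairs with vehicle replicate 4 and 2.11 to 7.92 for the other pairs. The columns not mapped to a sample numbered 0.

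All 36 members are named whatever their values, and of the listed other genes those with an unadjusted p below 0.05, or the 3 smallest p. Slc16a1 and Gbe1 fall outside this rule and were added after their values were seen, because their groups did not overlap. The members and lists were chosen with earlier results of these data known. Promoters come from RefSeq (GRCm38.p6), copies from GENCODE M21 transcripts, matched by exact windows of 50 bases.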

Additional observations from a re-analysis of the deposited data

Results flagged for a closer look

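Of 74 groups of 4 libraries examined (the 36 genes and the share of glycolysis genes in each condition), 6 held a library far from the other 3, where chance gives about 1 in 20 groups. In 4 of the 6 the library was vehicle replicate 4. Hk2, a hexokinase, stood at 41.5 FPKM there, with the other vehicle libraries at 29.3 to 30.6 FPKM. Pkm, pyruvate kinase, stood at 548 FPKM there, with the others at 414 to 436 FPKM. Hif1a stood low there at 113 FPKM, with the others at 130.0 to 133 FPKM, and Pfkfb4 low at 1.57 FPKM, with the others at 2.21 to 2.32 FPKM. Gapdh stood low in dimethyl succinate replicate 3, at 6.70 FPKM with the other dimethyl succinate libraries at 7.47 to 7.62 FPKM. It stood high in vehicle replicate 2, at 30.1 FPKM with the other vehicle libraries at 6.61 to 7.82 FPKM.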

How the results depend on the processing

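No member passed the adjusted threshold under any of the 15 alternatives. Over all genes the count called was 0 with all libraries, 4 with DESeq2, 6 with no filter on low counts, 1 with the replicate number as a block, and 0 to 28 with single libraries left out, the 28 without vehicle replicate 4. Genes at an unadjusted p below 0.05 numbered 805, or 744 with DESeq2, 1595 with no filter and 987 with the block. The numbers were not taken to pair libraries, since same-numbered deviations correlated at -0.014, 0.011, 0.056 and 0.13, and only replicate 4 correlated best with its own number. With the block 1 member had an unadjusted p below 0.05, and with single libraries left out 0 to 6 did. Of 252 member values under the 7 alternatives that keep all libraries, 4 changed sign: Pfkl to 0.0046 with the block and 0.0016 with the stricter filter, and Ldha to 0.00067 with no filter and 0.0032 with the stricter one. With single libraries left out 34 of 288 changed sign, in 19 members, whose log2 fold changes then ran from -0.085 to 0.021 (Hk1), -0.0046 to 0.076 (Gpi1), -0.053 to 0.10 (Pfkl), -0.12 to 0.068 (Pfkm), -0.023 to 0.15 (Pfkfb4), -0.066 to 0.064 (Aldoa), -0.071 to 0.13 (Aldoc), -0.025 to 0.080 (Tpi1), -1.03 to 0.039 (Gapdh), -0.069 to 0.052 (Eno1), -0.074 to 0.14 (Eno2), -0.12 to 0.026 (Pkm), -0.050 to 0.049 (Ldha), -0.12 to 0.013 (Ldhb), -0.15 to 0.053 (Vhl), -0.047 to 0.15 (Ddit4), -0.072 to 0.11 (Mxi1), -0.089 to 0.020 (Ndrg1) and -0.063 to 0.041 (Ak4). The log2 ratio differences ran from -0.11 to 0.061 (Pfkfb4 to Pfkfb3), -0.068 to 0.16 (Aldoc to Aldoa), -0.079 to 0.15 (Eno2 to Eno1) and -0.12 to 0.063 (Bnip3l to Bnip3). The cause was not tested. The other 17 members kept their sign in every alternative. Depth limits Ankrd37, at 65 to 103 counts per library, more than Pkm, at 27790 to 39398.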
